A study of Populus tremula x Populus tremuloides with 6 samples.

Results

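In leaves of sun-exposed hybrid poplar, 75 transcribed loci were lower in every MYB134 RNAi plant than in every wild-type (WT) plant by a clear margin. They were chosen on the counts themselves. A locus was taken when its mean WT level was at least 1 CPM (counts scaled to a total of 1000000 assigned to loci in each library) and when the highest of the 3 RNAi values lay under the lowest of the 3 WT values divided by 1.5. The files hold 37327 loci, of which 20826 reached the WT level, so the reduced loci are 0.36% of the loci that could be taken. Every level, ratio and difference between WT and RNAi at these loci is therefore a description of what was chosen, and none of it is a test.

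The 6 libraries come from leaves of 3 WT and 3 MYB134 RNAi saplings of Populus tremula x Populus tremuloides. All plants came out of tissue culture into a mist chamber (1 month), then a greenhouse (2 months), and were finally kept outdoors in natural sunlight for 2 weeks, so the sunlight is common to both groups. The RNAi plants carried sense and antisense copies of 169 bp of the MYB134 coding region behind a ubiquitin promoter, a kind of promoter active in most plant tissues. The number 24 stands in all 3 RNAi titles without explanation, and the labels do not state how many independent transformants they represent. If they share an insertion site, an effect of the hairpin and an effect of that site cannot be told apart.

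MYB134 belongs to the R2R3 class of MYB transcription factors. In poplar it is known as an activator of genes of the flavonoid pathway that leads to proanthocyanidins, the condensed tannins, which accumulate in leaves under strong light, wounding and pathogen attack. A hairpin of the kind used here gives rise to small RNAs that direct the breakdown of the matching transcript. The files name loci by number and do not pair the numbers with genes. The reduced loci therefore have no names or functions here, and neither the MYB134 transcript nor the markers of leaf cell types were analysed. Only the most abundant of the reduced loci and the one with the widest margin are given by number, and the others are given by their place in a stated order.

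Assigned counts per library ranged from 24001320 to 95496664, and the WT libraries were the 3 shallowest. RNAi replicate 3, the deepest, stood apart from the other 5. Its correlation with them over the 20826 loci, on the log2 scale, lay between 0.852 and 0.903, against 0.969 to 0.99 among the other 5. The main summaries are given with and without it below, and the levels of single loci are given for each library. In these bulk samples, fewer cells of a type and less RNA per cell cannot be told apart.

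The margin of each locus was expressed as its gap, the lowest WT level divided by the highest RNAi level. The gap ran from 1.51 to 19.5, with a median of 2.43. It was between 1.5 and 2 at 30 of the 75 loci, between 2 and 4 at 19, between 4 and 8 at 14, and 8 or more at 12. The mean RNAi level was between 2.49% and 57.2% of the mean WT level, with a median of 22.8%. Without RNAi replicate 3 the range was 2.01% to 62.3% and the median 28.8%. Under 5% of the WT level was left at 7 loci, 5% to 10% at 13, 10% to 25% at 19, 25% to 50% at 30, and more than 50% at 6. All 3 RNAi libraries were under 10% of the WT mean at 16 loci. Among the loci taken, the levels left formed a graded series in which partial loss was more frequent than near-complete loss. How frequent partial loss is depends on where the margin was set.

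**Figure D1:**
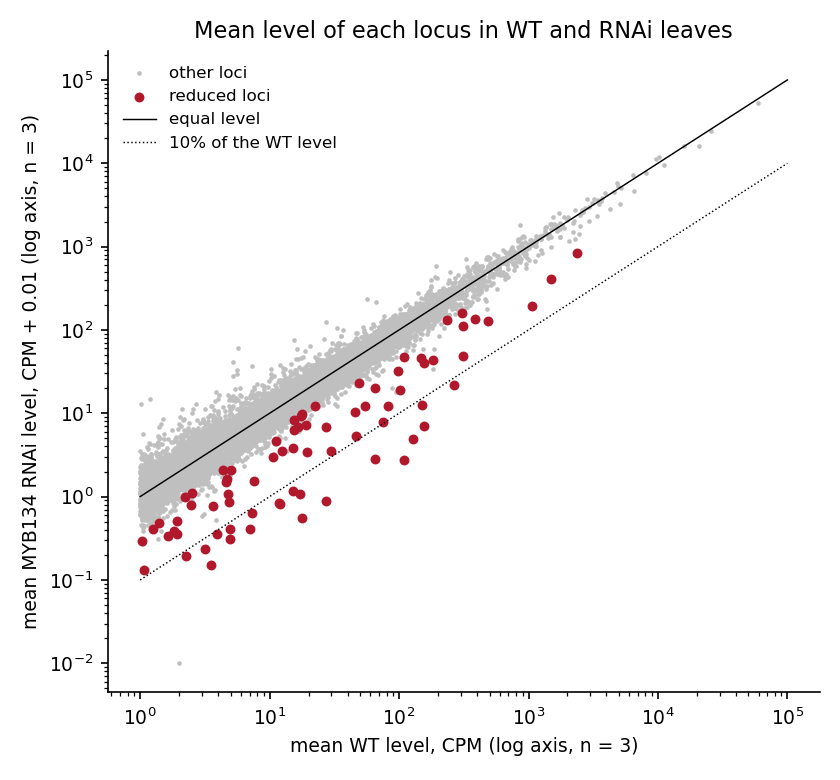
Mean level in WT (horizontal axis) and in MYB134 RNAi (vertical axis) of each locus with a mean WT level of at least 1 CPM, both on log axes in CPM, n = 3 libraries a group. Red points are the 75 reduced loci, which lie at 2.49% to 57.2% of the WT level, and grey points are the other loci.

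XLOC_020968 had the widest gap, 19.5. Its level was 168, 86.1 and 73.4 CPM in WT replicates 1, 2 and 3 and 2.42, 1.96 and 3.77 CPM in RNAi replicates 1, 2 and 3. The groups were far apart, and replicate 1 was the highest of the WT libraries. Counts at this locus were between 2067 and 4053 in the WT libraries and between 102 and 360 in the RNAi libraries. Exact Poisson 95% intervals, which cover counting error only, ran from 70.7 to 76.2 CPM in WT replicate 3 and from 3.39 to 4.18 CPM in RNAi replicate 3, the closest WT and RNAi values. WT plants averaged 109 CPM ± 51.2 (SD, n = 3), against 2.72 CPM ± 0.94 (SD, n = 3) in RNAi plants, so 2.49% of the WT level was left.

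The other 11 loci with a gap of 8 or more had the same form. The one with the next widest gap had 187, 106 and 92.2 CPM in WT and 5.13, 4.57 and 5.07 CPM in RNAi. Its RNAi values had an SD of 0.305 CPM (n = 3) and a coefficient of variation of 6.2%, the smallest in RNAi among the 12. The third had 24.8, 15.6 and 12.8 CPM in WT and 0.563, 0.269 and 0.785 CPM in RNAi. The most abundant of the 12, at place 9 by gap, had 338, 225 and 228 CPM in WT and 26.2, 24.4 and 15.7 CPM in RNAi. Over the 12 loci the mean WT level lay between 3.53 and 264 CPM, and between 2.49% and 8.37% of it was left. WT replicate 1 was the highest WT library at all 12.

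**Figure D2:**
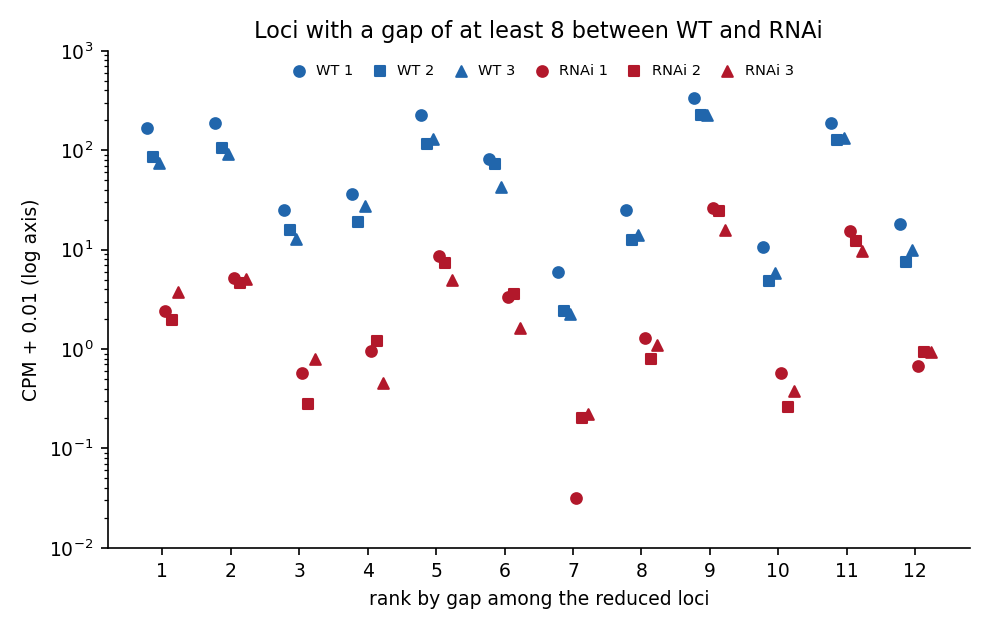
Level of the 12 loci with a gap of at least 8 in each library, in CPM plus 0.01 on a log axis, ordered by gap. Blue symbols are the 3 WT libraries, red symbols the 3 RNAi libraries, and the blue circle (WT replicate 1) is the highest symbol at every locus.

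At the 14 loci with a gap of 4 to 8, between 6.0% and 17.7% of the WT level was left, with a median of 8.56%. Several of them were weakly expressed: their median WT mean was 13.6 CPM and their median RNAi mean 0.978 CPM. The 19 loci with a gap of 2 to 4 had a median WT mean of 54.5 CPM and a median of 25.05% left. The 30 loci with a gap of 1.5 to 2 had a median WT mean of 15.3 CPM, near that of the 14 loci. A median of 36.2% was left at these 30, and the range was wide, from 20.1% to 57.2%. The gap depends on the closest WT and RNAi libraries and the level left on the means, so loci at which plants of a group are unequal can have a small gap and a large difference in means.

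**Figure D3:**
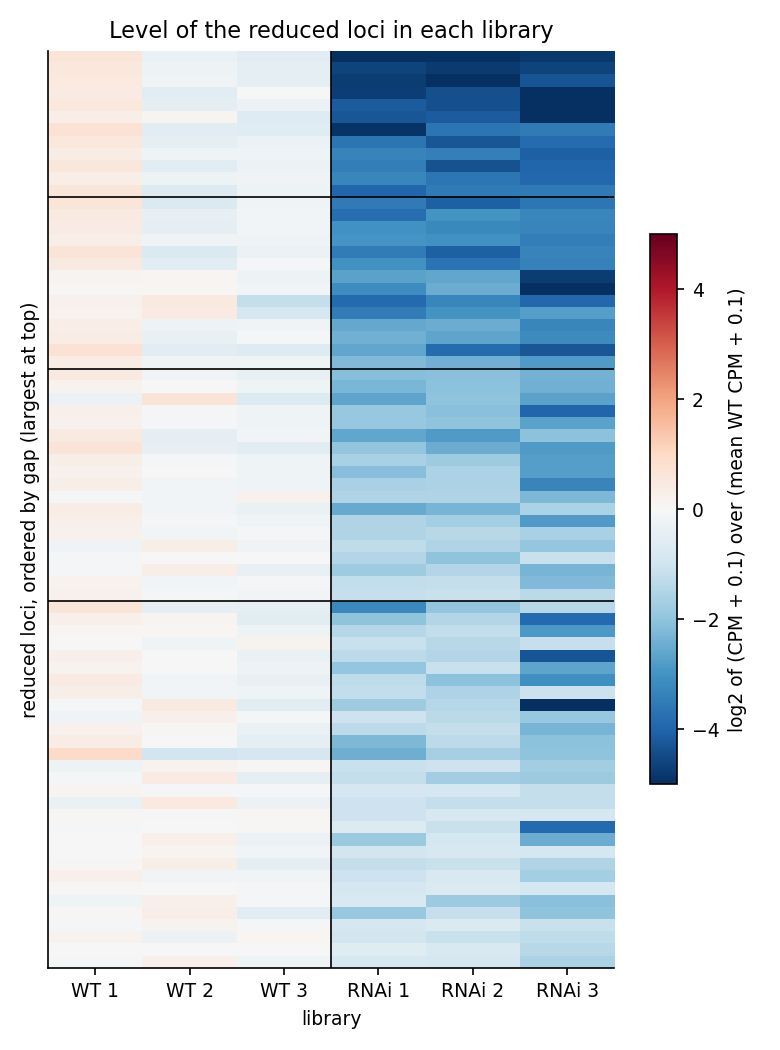
Each row is 1 of the 75 reduced loci, ordered by gap, and each column a library. Colour gives log2 of the level over the mean WT level (CPM plus 0.1), and black lines separate gaps of 8 or more (12 loci), 4 to 8 (14), 2 to 4 (19) and 1.5 to 2 (30). RNAi replicate 3 is the darkest column at many loci of the lower groups.

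A few abundant loci with intermediate loss carried much of the summed difference within the 75 loci. The 75 loci together took 1.15%, 0.895% and 0.803% of the assigned counts in WT replicates 1, 2 and 3, and 0.309%, 0.306% and 0.172% in the RNAi replicates. The WT mean was 0.948% ± 0.178 (SD, n = 3) and the RNAi mean 0.262% ± 0.0779 (SD, n = 3), a ratio of 3.62, or 3.09 without RNAi replicate 3. The 3 most abundant loci held 51.9% of the WT share and 50.9% of the difference, or 49.7% of it without RNAi replicate 3. The 12 loci with a gap of 8 or more held 10.1% of the WT share and 13.1% of the difference, or 13.96% without that library. Their own summed share had a ratio of 17.2, or 15.6 without it.

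XLOC_004344 was the most abundant of the reduced loci. It had 2784, 2467 and 1888 CPM in WT replicates 1, 2 and 3 and 973, 1035 and 473 CPM in RNAi replicates 1, 2 and 3. Its gap was 1.82, and 34.8% of the WT level was left, 2380 CPM ± 455 (SD, n = 3) against 827 CPM ± 308 (SD, n = 3). Without RNAi replicate 3, 42.2% was left. The RNAi plants were not alike at this locus, since replicate 3 was under the other two by more than the spread between those. The locus second in WT abundance showed this more strongly, with 1754, 1509 and 1175 CPM in WT and 605, 531 and 74.2 CPM in RNAi. The third had the opposite order, with 1437, 771 and 971 CPM in WT and 176, 147 and 253 CPM in RNAi, replicate 3 being the highest RNAi library.

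By WT abundance, 27 of the 75 loci had a mean WT level of 1 to 10 CPM, 29 of 10 to 100, 16 of 100 to 1000, and 3 of 1000 or more. These were 0.272%, 0.305%, 1.25% and 3.13% of all loci in the same ranges, so the reduced loci made up a larger part of the abundant loci than of the weak ones. Counting error is larger at weak loci, and its part in this order was not tested. The degree of loss had no clear order by WT abundance: across the 75 loci, log2 WT mean and log2 ratio of RNAi to WT had a Pearson r of -0.06 and a Spearman rho of -0.05, both computed with the same WT mean. The minimum level was set on WT alone, and at 24 of the 75 loci the mean RNAi level was under 1 CPM.

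At the low end, 69 of the 75 loci had at least 10 counts in every library, and the lowest WT count at any of them was 19. One locus had no count in RNAi replicate 3, which allows a level of up to 0.0314 CPM there (3 counts, counting error only). It had 1.32, 1.37 and 1.46 CPM in WT and 0.822 and 0.596 CPM in RNAi replicates 1 and 2. The seventh locus by gap had 143, 58 and 85 counts in WT and 1, 10 and 20 counts in RNAi, so its RNAi values are known only coarsely.

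The thresholds divide loci that are much alike. The locus just inside the gap of 1.5 had 4.10, 5.29 and 3.69 CPM in WT and 2.45, 2.38 and 1.38 CPM in RNAi. The one just outside, with a gap of 1.48, had 65.8, 62.8 and 46.8 CPM in WT and 25.3, 31.6 and 21.1 CPM in RNAi. At the minimum WT level, the nearest locus taken had a mean of 1.04 CPM and the nearest not taken 0.913 CPM. Gaps under 1.6 were found at 11 of the 75 loci, and 8 further loci had a gap between 1.4 and 1.5. Without a margin, 827 of the 20826 loci (3.97%) had RNAi libraries that all lay below the WT libraries, and the 75 are the part of them with a margin of 1.5. The same rule turned round, with at least 1 CPM in RNAi, took 30 of 21119 loci (0.142%) as higher in RNAi. The difference between 75 and 30 was not tested.

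The RNAi plants differed in how much was left. Relative to the WT mean, the median level at the 75 loci was 23.0% in RNAi replicate 1, 24.4% in replicate 2 and 13.6% in replicate 3. Replicate 3 was the lowest RNAi library at 52 of the 75 loci (69.3%), against 34.6% of all 20826 loci. The rule bounds the highest RNAi value, so a library that stands apart is taken mainly where it is low. Over all loci, replicate 3 lay past the margin at 13.8%, against 1.55% for replicate 1 and 0.595% for replicate 2. Values over all loci are therefore not a like reference, and the part of the choice in this excess was not tested. On the log2 scale the median deviation of replicate 3 from the RNAi mean was -0.32 at the reduced loci and 0.08 over all loci. At the 12 loci with the widest gaps it was lowest at 5, and there the median level left was 5.31%, 4.67% and 4.80% in replicates 1, 2 and 3. At the 30 loci with gaps of 1.5 to 2 it was lowest at 22, with 43.7%, 43.0% and 27.2% left. The median of replicate 3 was thus well below the other RNAi plants at partly reduced loci and close to them at the most reduced ones.

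**Figure D4:**
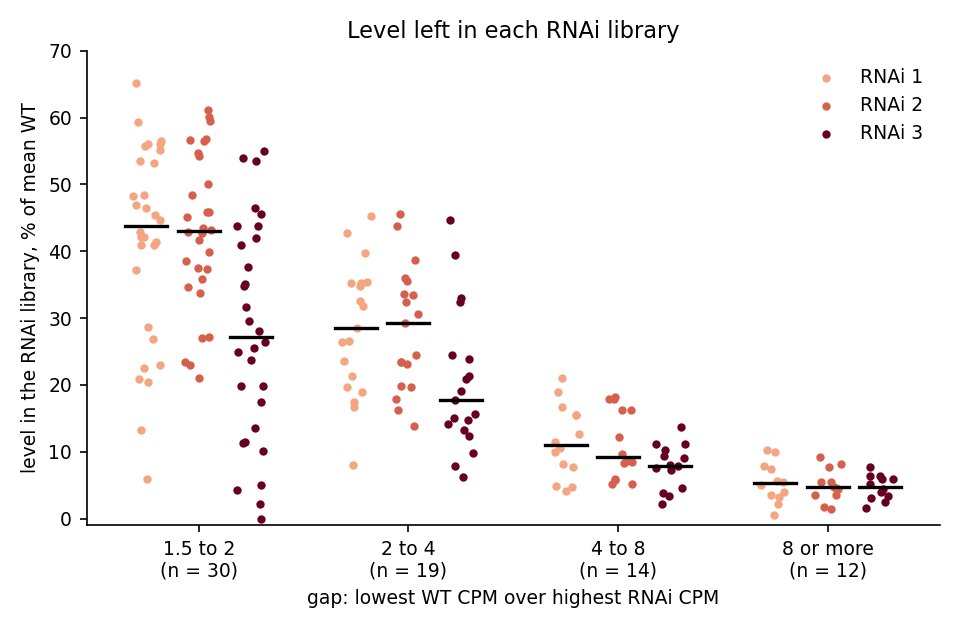
Level in each RNAi library as a percentage of the mean WT level (vertical axis) for the 75 loci, grouped by gap (horizontal axis). Each point is a locus and black bars are medians: RNAi replicate 3 has the lowest median, 27.2%, at gaps of 1.5 to 2, and all 3 libraries lie near 5% at gaps of 8 or more.

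RNAi replicate 3 was the highest RNAi library at 10 of the 75 loci (13.3%), against 49.9% of all 20826 loci. The rule bounds the highest RNAi value, so the choice of loci can lower this share. In log2 level relative to WT across the 75 loci, RNAi replicates 1 and 2 had a Pearson r of 0.92, and replicate 3 had 0.71 with each of them. These 3 correlations share the WT mean in both values and describe loci, not plants. The WT mean, the choice of loci and the depth of each library enter all of them.

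WT plants also differed at the reduced loci, and their order was not that seen over all loci. The rule bounds the lowest WT value and leaves high WT values free, so the choice of loci can enter this order. WT replicate 1 was the highest WT library at 53 of the 75 loci (70.7%), against 24.4% of all 20826 loci, where WT replicate 2 was highest at 55.2%. Its median log2 deviation from the WT mean was 0.27 at the reduced loci and -0.04 over all loci. The level in WT replicate 1 was a median of 1.31 times the mean of the other two at the 75 loci. By grade this ratio was 1.07 at gaps of 1.5 to 2, 1.27 at 2 to 4, 1.51 at 4 to 8, and 1.86 at 8 or more. WT replicate 1 was highest at 15 of 30, 14 of 19, 12 of 14 and 12 of 12 loci in these grades.

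The excess of WT replicate 1 tended to be larger at loci with more loss, with exceptions: the largest ratio, 3.87, was at a locus with a gap of 1.79. Across the 75 loci the log2 ratio of WT replicate 1 to the mean of WT replicates 2 and 3 had a Pearson r of -0.50 and a Spearman rho of -0.58 with the log2 ratio of RNAi to that same WT mean, in which WT replicate 1 has no part. Both values share WT replicates 2 and 3 and the choice of loci used all 6 libraries, so this is a description. At 35 of the 75 loci WT replicate 1 was the highest WT library and RNAi replicate 3 the lowest RNAi library. Each was frequent alone, at 53 and 52 of the 75, so many joint loci follow from these counts. The joint share over all loci was not computed, and nothing is read from the joint count. The median coefficient of variation at the reduced loci was 23.4% in WT and 30.3% in RNAi, against 13.8% and 20.9% over all loci. In WT it went from 18.3% at gaps of 1.5 to 2 to 38.9% at gaps of 8 or more.

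**Figure D5:**
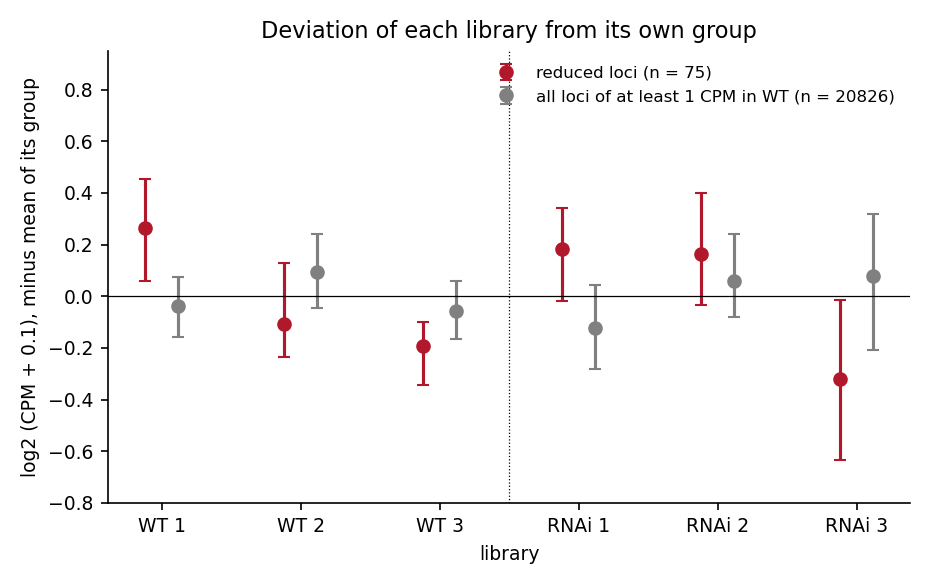
Median deviation of each library from the mean of its own group, in log2 (CPM plus 0.1), for the 75 reduced loci (red) and for all 20826 loci of at least 1 CPM in WT (grey). Bars run from the lower to the upper quartile of loci. WT replicate 1 stands at 0.27 and RNAi replicate 3 at -0.32 at the reduced loci, against -0.04 and 0.08 over all loci. The reduced loci were chosen on these same values, so the choice enters their deviations.

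The rule was also applied to 5 libraries at a time, and the loci found were read in the sixth. The libraries of the other group are shared between choice and reading. For an RNAi library left out, the loci that keep the margin are the 75 by definition, so only the number chosen varies. For a WT library they differ from the 75 only through the minimum WT level. RNAi replicate 1 lay past the same margin at 75 of the 80 loci chosen without it (93.8%), against 1.55% of all loci. Without RNAi replicate 3 the rule took 91 loci (0.437%), and that library lay past the margin at 75 of them (82.4%), against 13.8% of all loci, and it lay above all 3 WT libraries at 9 of the 91. RNAi replicate 2 did so at 75 of 165 (45.5%), against 0.595%, and lay above all WT libraries at 12 of the 165. The 165 loci chosen without it were the most of the 6 readings.

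The WT libraries were read in the same way. WT replicate 1 lay more than 1.5-fold above all RNAi libraries at 74 of the 89 loci chosen without it (83.1%), against 0.937% of all loci. WT replicate 2 did so at 73 of 87 (83.9%), against 3.32%. WT replicate 3 did so at 76 of 111 (68.5%), against 0.589%. In each of the 6 readings the share was larger at the chosen loci than at all loci. The libraries of the other group, which set the margin, had also helped to choose the loci. A larger share than over all loci therefore follows in part from the choice itself. These shares were not tested, and nothing is read from their size.

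In edgeR's quasi-likelihood test over 24853 loci, 13 loci passed a Benjamini-Hochberg adjusted p of 0.05, all of them lower in RNAi (0.0523% of those tested), and all 13 are among the 75. The test and the rule use the same contrast, so nothing is read from this overlap. The calls were 10 of the 12 loci with a gap of 8 or more, 2 of 14 with 4 to 8, 1 of 19 with 2 to 4 and 0 of 30 with 1.5 to 2. At an unadjusted p under 0.05, 73 of the 75 passed, beside 1.86% of all loci in the lower direction. The fitted log2 fold change was -5.40 (approximate SE 0.45) at XLOC_020968, with an edgeR adjusted p of 0.045. At XLOC_004344 it was -1.57 (approximate SE 0.35), with an edgeR adjusted p of 0.83, so the most abundant of the reduced loci did not pass the test although its groups did not overlap.

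DESeq2 called 69 loci lower (0.247% of those with an adjusted p), 63 of them among the 75, and without RNAi replicate 3 edgeR called 49 lower (0.197%), 43 of them among the 75. The call at XLOC_020968 did not hold in edgeR fits that left out WT replicate 2, WT replicate 3 or any one of the RNAi libraries, where the adjusted p lay between 0.0864 and 0.349, or with a minimum mean of 1 CPM (adjusted p = 0.0503). The log2 fold change in the 5 fits that each lacked 1 of these libraries lay between -5.66 and -5.20. XLOC_004344 passed without RNAi replicate 3 (log2 fold change -1.27, edgeR adjusted p = 0.030) and in DESeq2 (-1.58, adjusted p = 0.0039).

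Locus numbers give the only other property of the reduced loci in the files. Consecutive numbers were found in 1 pair of the 75, beside 12302 such pairs among all loci with a WT mean of at least 1 CPM. The pair among the 75 was chosen after its values were seen. One of these loci had 24.95, 12.4 and 13.9 CPM in WT and 1.28, 0.788 and 1.10 CPM in RNAi. The other had 18.1, 7.17 and 10.7 CPM in WT and 0.931, 0.615 and 0.88 CPM in RNAi. Their libraries stand in the same order in both groups, with 6.17% and 6.74% of the WT level left. Their order in WT was found at 22 of the 75 loci (29.3%) and their order in RNAi at 7 (9.33%). Whether they are neighbouring genes or pieces of 1 transcript cannot be read from the numbers.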

How the data were processed

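Leaf RNA of 3 WT and 3 MYB134 RNAi plants was sequenced, and each library was deposited by the authors as raw read counts per locus, without normalization. Per the submitters' processing notes the tools were HTSeq 0.6.1, HISAT2 2.1.0, R 3.4.0, DESeq and Cufflinks, with no roles given. Strandedness, annotation and build: not given in the sources used here. In each file 5 summary rows, 25.9% to 29.1% of its counts, were left out of totals and tests, so reads shared between close gene copies or overlapping loci may be missing from a locus.

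CPM was computed from the deposited counts by library total, with no other scaling. Log2 ratios used a pseudocount of 0.1 CPM. The members and lists were chosen with earlier results of these data known. Loci given by number are the member with the highest mean WT level and the member with the widest gap. The gene and marker lists drawn up for the flavonoid pathway and leaf cell types could not be matched to numbers and were not used. All loci kept by filterByExpr were fitted with edgeR 4.0.16 in R 4.3.3 (TMM, robust quasi-likelihood F test). The approximate SE is the size of the log2 fold change over the root of F. DESeq2 1.42.0 and limma-voom (limma 3.58.1) were alternatives. The fits were also run on simulated counts with planted changes. That run held no library standing apart as RNAi replicate 3 does, so it checks the code only. All 75 reduced loci passed filterByExpr. The labels describe separate saplings, and the tests set the difference between groups against the spread between these plants. The number of independent transformants is not stated, so p-values cannot be taken to cover spread between transformants. Replicate numbers were not taken to pair WT with RNAi plants.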

Additional observations from a re-analysis of the deposited data

How the results depend on the processing

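The number of reduced loci was 827 with no margin and 45 with a gap of 2. It ranged from 80 to 165 with 1 library left out, the highest without RNAi replicate 2. It was 76 with TMM-scaled library sizes, 71 of them among the 75, and it stayed within 1.5 times of 75 with other minimum levels. The median log2 ratio of the 75 loci, -2.02, lay between -2.24 and -1.70 with 1 library left out, and the ratio of summed shares, 3.62, between 3.09 and 3.97. By library total, the median log2 ratio of all loci to WT was -0.11, 0.10 and 0.14 in RNAi replicates 1 to 3, against -1.92, -1.81 and -2.74 at the reduced loci. With TMM scaling, added after seeing the data, WT replicate 1 was highest at 53 of the 75 loci and RNAi replicate 3 lowest at 56, against 31.7% and 44.3% of all loci. The choice of loci enters these counts too.

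The number of loci past the adjusted threshold, 13 in edgeR, was 24 with no filter, 7 in limma-voom and 82 in DESeq2 (69 lower, 13 higher). It was 0 in edgeR with a mean of at least 1 CPM, where the smallest adjusted p of the reduced loci was 0.0503 and 995 loci had an unadjusted p under 0.05. With 1 library left out edgeR called between 0 and 52: without RNAi replicate 3 there were 52, leaving out WT replicate 1 gave 2, and each fit lacking WT replicate 2, WT replicate 3, RNAi replicate 1 or RNAi replicate 2 gave 0, where 820, 785, 1305 and 1448 loci had an unadjusted p under 0.05. The cause was not tested. With the replicate block edgeR called 15. Same-numbered WT and RNAi libraries had deviations that correlated at -0.18, 0.43 and 0.27. Differently numbered ones correlated between -0.37 and 0.24, and no pairing was assumed. All the reduced loci in each fit had a negative fold change, which follows from the rule, so nothing is read from it. A count of 0 allows up to 0.125 CPM in the shallowest library (a bound of 3 counts, counting error only).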

Other observations

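One locus outside the 75, chosen after its values were seen, had no count in any RNAi library. It had 119, 26 and 0 counts in WT replicates 1, 2 and 3, a mean of 2.00 CPM, and was not taken because its lowest WT value was 0. WT replicate 1 was the highest WT library there too.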
